A study of Arabidopsis thaliana with 4 samples.

Results

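At the top of chromosome 4 of Arabidopsis thaliana, 6 loci (AT4G01350, AT4G01740, AT4G01760, AT4G01910, AT4G01920 and AT4G01930) were examined as a group of genes for proteins with the cysteine- and histidine-rich C1 domain. They were chosen by locus and annotation around AT4G01910 and AT4G01920, a pair selected on its high log2 difference between aln-1 and wild type in these same arrays. Of the 6 loci, 5 had a probe set that the array annotation pairs with a single gene, out of 22746 probe sets in all. AT4G01350 had no such probe set and was not analysed here. A gene is called measured below only if it had such a probe set. The annotation left 8730 probe sets unlisted, so a gene called unmeasured may still have a probe set on the array. The arrays compared aerial parts of seedlings of aln-1, which carries a mutant allele of ALN, the gene for allantoinase, in Col-0, with those of wild type Col-0, 2 biological replicates of each, all 2 weeks after germination. All seedlings grew on solid half-strength medium with 1% sucrose at 22 °C in 16 h light and 8 h darkness, and the labels name no further treatment. One mutant allele stands for the loss of allantoinase, and the labels do not say how many seedlings made up a sample.

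A C1 domain is a small zinc-binding fold in which cysteine and histidine residues hold the metal. It takes its name from the first conserved region of animal protein kinase C, where such domains bind diacylglycerol. Plants carry a large family of proteins with a divergent form of the domain, often several copies in one protein, and the function of most of them is not known. The ALN enzyme hydrolyses allantoin during purine breakdown, and the mutant accumulates allantoin. No sequence of these proteins or of their promoters was used here.

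Each value is a log2 signal set against the median of its probe set on the 4 arrays, so the levels of different genes cannot be compared, only their differences. A difference is the aln-1 mean less the wild type mean, with the standard error (SE) from limma's fit over all probe sets. The loci were chosen with this comparison known, so their differences are a description and carry no p-value. ALN was at -1.59 and -1.72 on the aln-1 arrays, against 1.59 and 2.03 on the wild type arrays, a difference of -3.46 (SE 0.22), in the direction of the labels; its limma adjusted p was 0.0580. The array medians lay between -0.040 and 0.039. Root markers, looked at because the labels give aerial parts, were measured for 3 of 12 genes, and all 3 differences were above 0. Their summed values were 0.89 and 1.72 on the aln-1 arrays, against -2.02 and -0.92 on the wild type arrays. Leaf and photosynthesis markers were measured for 4 of 7 genes, and all 4 differences were below 0; their sums were -0.55 and -1.85 on the aln-1 arrays, against 1.17 and 0.67 on the wild type arrays. The root differences were 1.43 (SE 0.36) for EXPA7, 1.14 (SE 0.255) for EXPA18 and 0.20 (SE 0.13) for PYK10. By the rounding steps described below, PYK10 fell in the brightest group of probe sets and EXPA7 and EXPA18 in the middle one. The leaf differences were -0.92 (SE 0.225) for SBPASE and -0.88 (SE 0.24) for PRK. Those of LHCB4.1, -0.19 (SE 0.17), and PSAE-1, -0.12 (SE 0.20), were small, and their genotypes overlapped. None of these 7 markers passed the limma threshold. No floral marker had a probe set that the annotation pairs with a single gene, and the same holds for the root and leaf markers not measured. No marker can be called absent from values centred in this way. The part of tissue makeup in the results below was not tested, and in whole aerial tissue more cells of a type cannot be told apart from more RNA per cell.

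AT4G01910, AT4G01920 and AT4G01740 had higher signals in aln-1, with the genotypes well apart, AT4G01930 was slightly higher and AT4G01760 showed no clear direction. The 5 differences ran from -0.41 to 5.70 on the log2 scale, with a median of 3.07 against -0.076 over all probe sets. The lower aln-1 array exceeded the higher wild type array for 4 of the 5 genes, and for 25.2% of all probe sets. A difference of at least 2-fold in all 4 pairs of an aln-1 and a wild type array was seen for 3 of the 5, AT4G01740, AT4G01910 and AT4G01920, and for 4.67% of all probe sets. The choice of the loci rested on this comparison, so nothing is read from these shares. The wild type signals of AT4G01740, AT4G01910 and AT4G01920 were low, and how far they stood above background is not known, so the folds and ranks that follow, and the order of the 3 genes, may depend on the lowest signal each probe set could give.

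**Figure D1:**
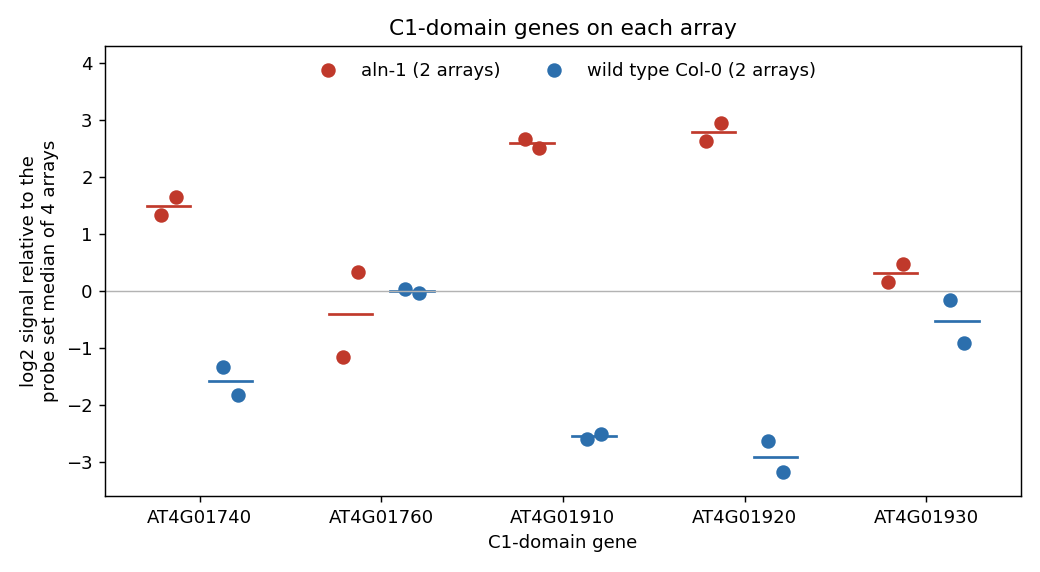
Log2 signal relative to the probe set's median over the 4 arrays (vertical axis) for the 5 measured C1-domain genes, with points for single arrays and short lines for the mean of the 2 arrays of aln-1 (red) and of wild type (blue). The genotypes are widely apart for AT4G01910 and AT4G01920, apart by less for AT4G01740, close for AT4G01930, and overlapping for AT4G01760.

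AT4G01910 was at 2.67 and 2.51 on the aln-1 arrays, against -2.59 and -2.51 on the wild type arrays. The replicates of both genotypes nearly coincided, and the genotypes were separated by at least 5.02 in each of the 4 pairs. The difference was 5.14 (SE 0.15), or 35.3-fold, with means of 2.59 ± 0.11 in aln-1 and -2.55 ± 0.056 in wild type (SD, n = 2 each). It was the 36th highest difference among the 22746 probe sets. Its SD within genotype, 0.089, was lower than that of most probe sets, since 16.7% of them had a smaller one.

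AT4G01920, which follows AT4G01910 in the gene order with 1 annotated gene between them, was at 2.63 and 2.95 on the aln-1 arrays, against -2.63 and -3.18 on the wild type arrays. Its replicates were further apart than those of AT4G01910, but the smallest gap between the genotypes was still 5.27 and the largest 6.14. The difference was 5.70 (SE 0.28), or 52.1-fold, with means of 2.79 ± 0.23 in aln-1 and -2.91 ± 0.39 in wild type (SD, n = 2 each). This was the 18th highest difference of all probe sets, and the highest mean difference among the C1-domain genes measured. The difference of AT4G01920 exceeded that of AT4G01910 by 0.56, which is of the order of the spread between the 2 wild type arrays of AT4G01920. The order of these 2 genes is therefore not settled.

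AT4G01740 comes before AT4G01910 in the gene order, with 22 annotated genes between them. Its signal was 1.33 and 1.65 on the aln-1 arrays, against -1.33 and -1.83 on the wild type arrays, with no overlap and a smallest gap of 2.67. The difference was 3.07 (SE 0.26), or 8.42-fold, with means of 1.49 ± 0.22 in aln-1 and -1.58 ± 0.35 in wild type (SD, n = 2 each). It ranked 216th among all probe sets.

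AT4G01760 stands next to AT4G01740 with 1 annotated gene between them and did not show a difference of that size. It was at -1.15 and 0.34 on the aln-1 arrays, against 0.032 and -0.032 on the wild type arrays. The wild type arrays lay between the 2 aln-1 arrays, so the genotypes overlapped. The difference was -0.41 (SE 0.59), with an SD of 1.06 in aln-1 and 0.045 in wild type (n = 2 each). Its sign rested on aln-1 replicate 1, and without that array it was 0.34, while without aln-1 replicate 2 it was -1.15.

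AT4G01930 follows AT4G01920 with 2 annotated genes between them. It was at 0.15 and 0.47 on the aln-1 arrays, against -0.15 and -0.91 on the wild type arrays. The aln-1 arrays were both higher, but the smallest gap, 0.30, was less than the distance between the 2 wild type arrays. The difference was 0.84 (SE 0.34), or 1.79-fold, with means of 0.31 ± 0.23 in aln-1 and -0.53 ± 0.53 in wild type (SD, n = 2 each). Of all probe sets, 13.2% had a difference at least as high. Without wild type replicate 2 the difference was 0.46, and without wild type replicate 1 it was 1.22, which then met the 2-fold limit in the remaining pairs.

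**Figure D2:**
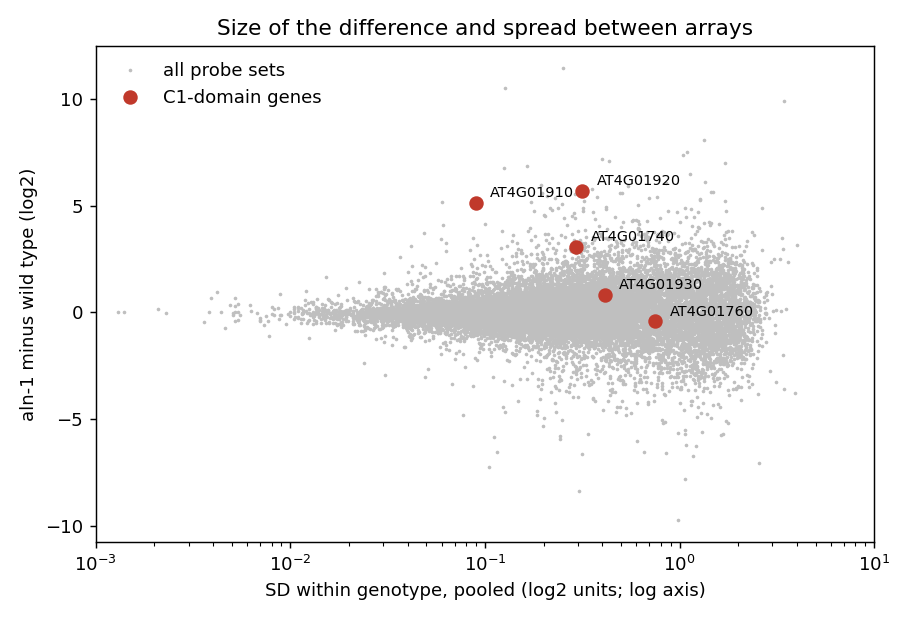
Difference between aln-1 and wild type (log2, vertical axis) against the pooled SD within genotype (log2 units on a log axis) for all probe sets (grey) and the 5 measured C1-domain genes (red). AT4G01910 and AT4G01920 lie at the upper edge of the cloud at SDs of 0.089 and 0.32, AT4G01740 lies inside its upper part, and AT4G01930 and AT4G01760 lie within the bulk. The 36 probe sets with an SD below 0.001 are not drawn.

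The absolute signal is not in the values, but a limit on it can be read from how finely the single precision numbers are rounded, if the logarithm has base 2. By these steps both wild type arrays of AT4G01740, AT4G01910 and AT4G01920 had MAS5 signals below 16. The same steps and the differences put the aln-1 signals of AT4G01910 below 581 and 520, those of AT4G01920 below 617 and 770, and those of AT4G01740 below 102 and 127. The 3 genes thus shared a very low wild type signal. AT4G01760 was low in both genotypes, below 16.0 and 45.1 on the aln-1 arrays and below 36.4 and 34.8 on the wild type arrays. For AT4G01930 the limits were 284 and 356 on the aln-1 arrays and 231 and 137 on the wild type arrays. These are upper limits and set no order between the genes. In 4586 probe sets the finest step belonged to a signal below 16 on at least one array or at the row median, and 4 of the 5 genes were among them. The median SD within genotype was 0.94 in these dim probe sets, against 0.14 in the 10213 brightest. A probe set low in 1 genotype alone also counts as dim, as AT4G01740, AT4G01910 and AT4G01920 did through their wild type arrays, so this group holds both kinds.

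The measured genes between and beside the C1-domain genes showed no differences as large as those of AT4G01740, AT4G01910 and AT4G01920. Differences at least as high were rare over all probe sets, at 0.95%, 0.16% and 0.079% for the 3 genes in that order. Among the dim probe sets, the group these 3 genes belong to, they were more common, at 2.42%, 0.41% and 0.17%. These genes were chosen with this comparison known, so nothing is read from the contrast with their neighbours. The window ran from 10 annotated genes before AT4G01350 to 10 after AT4G01930 and held 112 annotated genes, 6 of them the C1-domain loci. Of the other 106, 32 had a probe set that the annotation pairs with a single gene and so count as measured, by 33 probe sets. Between the unmeasured AT4G01350 and AT4G01740 lie 62 annotated genes, and most of the 33 probe sets belong to genes before AT4G01740. In limma's fit over all probe sets 0 of the 33 passed an adjusted p of 0.05, against 58 probe sets or 0.255% of all, with a smallest adjusted p of 0.143, and 5 had an unadjusted limma p under 0.05, 2 higher and 3 lower, where 23.4% of all probe sets did. When any one of the 4 arrays was left out (aln-1 replicate 1 or 2, or wild type replicate 1 or 2), limma called 0 of all probe sets. Of the 33, 0 were 2-fold apart in all 4 array pairs, against 8.21% of all probe sets. The genotypes did not overlap in 13 of the 33, 4 higher and 9 lower in aln-1, against 60.1% of all probe sets. Their differences ran from -1.53 to 0.66 with a median of -0.096, close to the -0.076 over all probe sets. Of these 33 probe sets, 4 were in the dim group, 14 in the middle and 15 in the bright one. Of the 5 C1-domain genes, 4 were in the dim group and AT4G01930 in the middle one, so the comparison is not matched for signal.

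The neighbours with the largest differences lay away from AT4G01740, AT4G01910 and AT4G01920, with 1 exception. AT4G01460 differed by -1.53 (SE 0.42) and AT4G01380 by -1.06 (SE 0.48). AT4G01730 differed by -0.68 (SE 0.15), AT4G01340 by -0.67 (SE 2.00), AT4G01410 by 0.66 (SE 0.19) and ARV2 by -0.65 (SE 0.25). In limma's fit their adjusted p ranged from 0.143 to 0.861. AT4G01730 is the nearest measured gene before AT4G01740, with 1 annotated gene between them, and its difference had the opposite sign. A further 3 nearest measured genes are named for their place, chosen after their values were seen. AT4G01790, the nearest measured gene after AT4G01760, differed by 0.42 (SE 0.14). AT4G01897, the nearest before AT4G01910, differed by 0.46 (SE 0.25), and AT4G01960, the nearest after AT4G01930, by -0.50 (SE 0.18). The genes directly between AT4G01910, AT4G01920 and AT4G01930, and RGXT2 between AT4G01740 and AT4G01760, had no named probe set of their own.

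**Figure D3:**
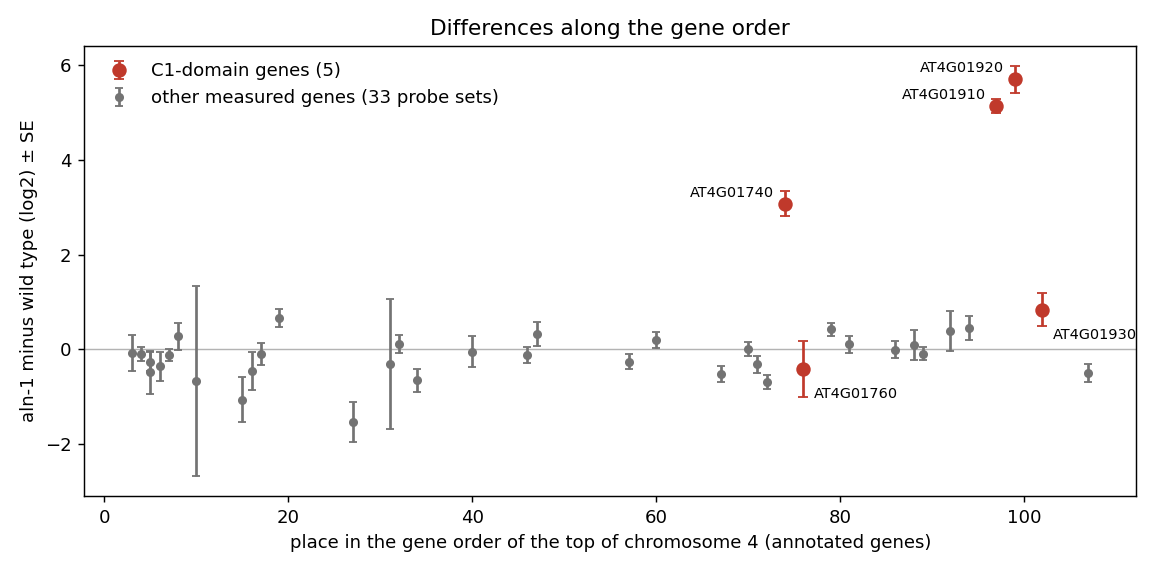
Difference between aln-1 and wild type (log2, vertical axis, bars are ± SE) against the place in the gene order of the top of chromosome 4, counted in annotated genes, for the 5 C1-domain genes (red) and the 33 other measured probe sets (grey). AT4G01740, AT4G01910 and AT4G01920 stand far above the grey points, which run from -1.53 to 0.66. AT4G01930, at 0.84, lies just above the highest grey point, and AT4G01760 lies among the grey points.

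The named probe sets with the most similar values over the 4 arrays were found by Euclidean distance on the log2 scale. With 4 arrays such likeness says little more than that a gene differs by a similar amount, and 30 probe sets lay within a distance of 1 of AT4G01910 and 15 within 1 of AT4G01920. The 2 genes themselves were 0.81 apart. The closest to AT4G01910 were the pseudogenes AT5G34800 and AT2G13970, at distances of 0.30 and 0.43, then AT1G58150 at 0.43 and BSMT1, whose enzyme methylates salicylate and benzoate, at 0.45. BSMT1 differed by 5.35 (SE 0.22). The closest to AT4G01920 were AT5G43030 at 0.35, AT3G47680 at 0.37, AT4G20480 at 0.39 and the pseudogene AT4G08110 at 0.50. AT5G43030 was at 2.63 and 2.63 on the aln-1 arrays, against -2.63 and -3.05 on the wild type arrays, a difference of 5.47 (SE 0.21).

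**Figure D4:**
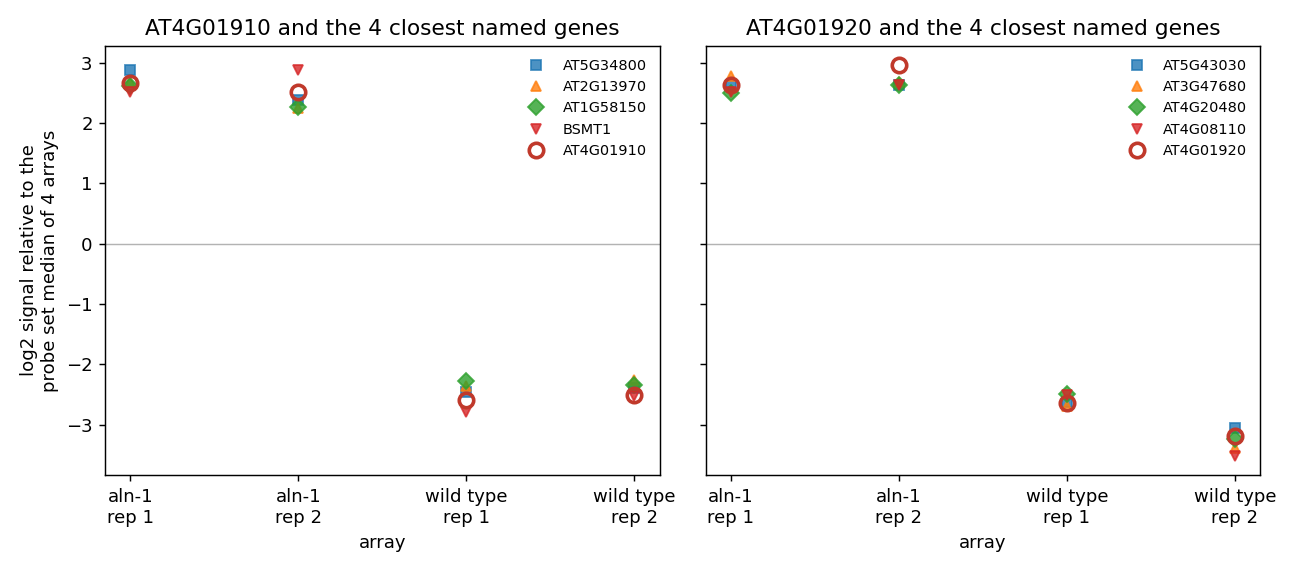
Log2 signal relative to the probe set's median (vertical axis) on each of the 4 arrays for AT4G01910 (left) and AT4G01920 (right), drawn as open circles, with the 4 named genes closest to each. All points of the aln-1 arrays lie above 2 and all points of the wild type arrays lie below -2.

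All 5 probe sets carry the plain type of name that marks no known sharing of probes, and the annotation lists 1 gene for each. Whether a probe set of one C1-domain gene also binds transcripts of another was not tested. The log2 differences of AT4G01910 and AT4G01920, with 1 annotated gene between them, lay 0.56 apart, those of AT4G01740 and AT4G01760 lay 3.48 apart, and those of AT4G01920 and AT4G01930 lay 4.86 apart.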

How the data were processed

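Transcript levels came from arrays of aerial seedling parts, 2 of aln-1 and 2 of wild type, grouped by title. The authors deposited log2 values of 22746 probe sets. MAS5 is named in the submitters' processing notes, with version and scaling not given in the sources used here. Of each probe set's 4 values the middle pair adds up to 0 within 2e-06 in all 22746 rows, so values are ratios to the row median. No base of the logarithm is stated, and 2 was assumed. Values were fitted as deposited on genotype with limma 3.58.1 (R 4.3.3) lmFit and eBayes, two-sided, with Benjamini-Hochberg adjustment over all probe sets and a threshold of 0.05. The fit and the reading of the rounding steps carry no filter or pseudocount. On simulated data the fit was checked only for recovering an added difference, and its rate of false calls was not checked. P-values set a difference against the spread between 2 biological replicates per genotype. In limma's fit this spread is moved towards a value estimated from all probe sets, and the number of arrays limits the precision.

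Steps of 2 to the power -22 or finer mark signals below 16, and those of 2 to the power -21 signals below 256. Of the probe sets, 13513 had 1 gene, 503 several and 8730 were not listed; 13436 matched the RefSeq table of TAIR10.1, used for names and gene order. The C1-domain genes, window, markers and rule for named genes were chosen with earlier results of these data known. The rule takes ALN, all measured C1-domain genes, called neighbours or else the 6 with the largest absolute difference, and the 4 named genes closest to AT4G01910 and to AT4G01920. A list of C1-domain genes elsewhere was planned by gene description, which the tables used here do not hold, so it was not analysed here. Same-numbered arrays did not deviate together (r = 0.0209 across probe sets, which are not independent), and replicate numbers were not used as pairs in the main fit. This value cannot show whether same-numbered arrays were grown or processed together.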

Additional observations from a re-analysis of the deposited data

How the results depend on the processing

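Without aln-1 replicate 1 the difference of AT4G01760 changed sign, to 0.34; the differences of the other 4 C1-domain genes kept their sign under each array left out, median centring and quantile normalization. With 2 arrays a genotype, leaving out 1 can move a mean by no more than the spread of its own pair, so the ranges that follow restate that spread. With each array left out the differences ranged from 2.83 to 3.32 for AT4G01740, from -1.15 to 0.34 for AT4G01760, from 5.06 to 5.22 for AT4G01910, from 5.43 to 5.98 for AT4G01920 and from 0.46 to 1.22 for AT4G01930. The 58 limma calls over all probe sets became 0 with each array left out (0 to 0; 2953 to 5326 at an unadjusted p under 0.05), 0 with the replicate number as a block (4460), 0 with a robust prior (5084), 0 after quantile normalization (5713) and 0 at a threshold of 0.01. They became 82 with the arrays centred on their medians, 1052 with variance priors within brightness classes, 884 without dim probe sets and 1078 at a threshold of 0.1. Leaving out an array or fitting the block leaves fewer degrees of freedom, and for the other settings the cause was not tested. Among the neighbours limma called 0 under all of these alternatives and in windows of 5 and 20 genes on either side, with 0 to 7 at an unadjusted p under 0.05 where counted. The rule of 2-fold in every pair, chosen after seeing the data, held for 1868 probe sets and, with 1 array fewer and so with fewer pairs to meet it, for 2932 to 3966; it held for 3 of the C1-domain genes, and for 4 without wild type replicate 1. A balanced replicate block cannot move a difference, which stayed at 5.14 for AT4G01910. The alternatives for C1-domain genes elsewhere and for a pseudocount were not run, since neither could be formed.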
